A study of Mus musculus with 3 samples.

Results

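The hypoxia and glycolysis genes are 35 named genes that were looked up by symbol in 3 single-cell libraries from C57BL/6 mice, made on the 10x Genomics Chromium system, which captures the RNA of single cells in barcoded droplets. All 35 were found, among 33696 features in each Achilles tendon library and 35980 in the library of dorsal root ganglia (DRG), the clusters of sensory neuron cell bodies beside the spinal cord. They were read in 2 groups: 19 genes of glycolysis with its glucose and lactate transport, and 16 other targets of the hypoxia pathway. The neurectomy library came from tendons whose sural nerve had been cut 1 week before 4 weeks of dorsiflexion immobilisation, a way of overstraining the tendon. The sham library came from tendons that had only the exposure of the nerve before the same 4 weeks of immobilisation. Tendons of 5 mice went into each library, and the labels give neither their age nor a way to tell them apart, so there is 1 library per group, no test between groups and no p-value. The DRG library held 18 ganglia from 6 mice that were injected with 5 µL of a reporter virus into the tendon sheath at 4 weeks of age and examined 4 weeks later. The labels name that virus both as AAV and as lentivirus, and do not settle if ganglia of both sides or of the injected side alone were taken. Those ganglia had neither operation nor immobilisation, so they serve for the levels of the genes by cell class and for no comparison with tendon.

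Hypoxia-inducible factor (HIF) is a transcription factor whose alpha subunit is hydroxylated by prolyl hydroxylases when oxygen is present and is then degraded through the VHL protein. When oxygen is low, the subunit persists and HIF drives genes that shift ATP production towards glycolysis, restrain entry of pyruvate into mitochondria, remove mitochondria by mitophagy and modify collagen. Tendon is a collagen-rich tissue with few vessels, and collagen prolyl hydroxylases, some of them HIF targets, are needed to make stable collagen.

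The libraries held 25067 neurectomy, 32951 sham and 23566 DRG barcodes, and 21992, 25306 and 22384 passed the filters, which asked for 500 or more genes and no more than 15% of UMIs from mitochondria. UMIs are molecular tags that count single RNA molecules. Barcodes were put into classes by gates on marker genes, none of them a member, and each class is called after its markers ("tenocyte-like"). In the neurectomy library 42.2% of the barcodes that passed fell into a class and 45.7% met no gate, against 55.1% and 32.0% in the sham library, so the values describe the barcodes that could be placed. Tenocyte-like barcodes, the collagen-making cells of tendon, numbered 3449 in the neurectomy and 9305 in the sham library, with medians of 1629 and 1317 UMIs. Their top genes in both libraries included Fmod, Scx, Tnmd and Mkx, all defining markers. The neurectomy library had 55528 Xist UMIs and 39 UMIs of 4 Y-linked genes, a female type, and the sham library had 61571 and 6366, a mixture. The DRG library had 23 and 49538, a male type. Within the sham tenocyte-like class, 3955 barcodes held Xist and no Y-linked UMI, 619 held Y-linked UMIs and no Xist, and 4519 held neither. The labels do not give the sex of the mice. The 2 tendon libraries shared 1001 barcode sequences, and the neurectomy and sham libraries shared 153 and 189 with the DRG library. UMIs of skeletal muscle markers were more frequent in the neurectomy library in every class compared, at 87.2 against 14.6 CPM in tenocyte-like barcodes (CPM is the UMIs of a gene or list in each 1000000 UMIs of a class).

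In tenocyte-like barcodes most members were lower after neurectomy than after sham operation, and 6 of the 30 that entered the comparison were at least 2-fold lower. Those were the lactate exporter Slc16a3, the glucose transporter Slc2a1 and the liver-type phosphofructokinase Pfkl among the glycolytic genes, and Ankrd37, Bnip3 and Higd1a among the other hypoxia targets. No member was 2-fold higher. A gene entered a comparison with at least 50 UMIs over both libraries and at least 10 CPM in the higher one, and of all 8686 genes that entered, 0.472% were at least 2-fold lower and 0.794% at least 2-fold higher. The median log2 ratio was -0.29 over 17 of 19 glycolytic genes and -0.30 over 13 of 16 other hypoxia targets, beside 0.04 over all genes. The 95% interval of the ratio, which covers counting error and not differences between mice, lay below 0 for 25 members and above 0 for 3, while it lay below 0 for 18.5% and above 0 for 31.3% of all genes. Without the barcode sequences found in both tendon libraries, the same 6 members were 2-fold lower and the medians were -0.40 over 17 glycolytic genes and -0.37 over 14 other hypoxia targets. Against the sham barcodes with Y-linked transcripts only, described further on, the glycolytic median was 0.17. Markers of mineralising cells were at 248 CPM after neurectomy against 641 CPM after sham in this class, and their part in the result was not tested.

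**Figure D1:**
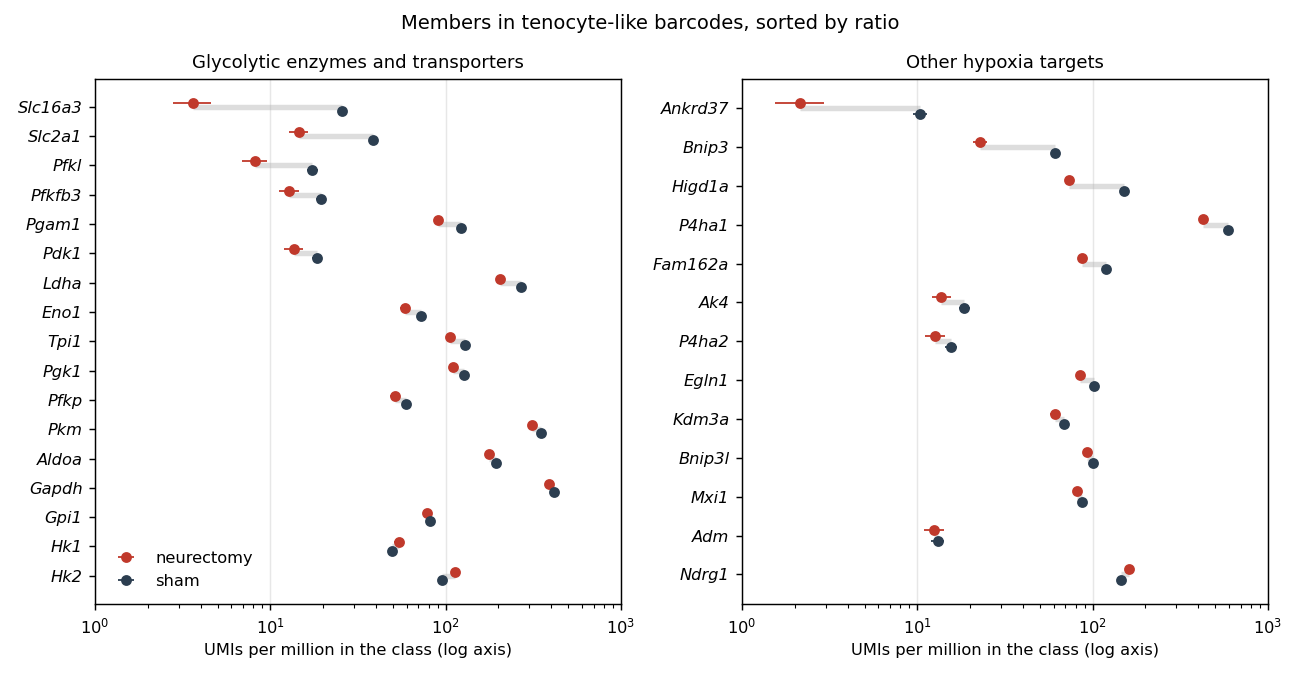
Level of each member that entered, in tenocyte-like barcodes of the neurectomy (red, upper point) and sham (dark, lower point) libraries, in CPM on a log axis. Bars are exact 95% Poisson intervals for counting error, with 1 library per group. Slc16a3, at 3.61 CPM after neurectomy against 25.6 CPM after sham, and Ankrd37, at 2.16 against 10.3 CPM, lie farthest apart.

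Glucose enters the cell through carriers such as Slc2a1 (GLUT1), which stood at 14.5 CPM (12.8 to 16.3) in the neurectomy and 38.3 CPM (36.6 to 40.2) in the sham tenocyte-like barcodes (log2 ratio -1.40, -1.59 to -1.22). Hexokinases then trap glucose as its phosphate, and both were slightly higher after neurectomy. Hk1 was at 54.1 against 49.3 CPM (log2 ratio 0.13) and Hk2, which is inducible, at 113 against 95.1 CPM (0.25). The isomerase Gpi1, at 78.3 against 81.3 CPM, had an interval that held 0 (-0.14 to 0.03).

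Phosphofructokinase is the committed step of glycolysis, and its subunits differed from each other. Pfkl was at 8.14 CPM (6.89 to 9.54) after neurectomy and 17.4 CPM (16.2 to 18.6) after sham, with a log2 ratio of -1.10, whereas the platelet type Pfkp was at 51.6 against 59.5 CPM (-0.21). Pfkfb3, which makes the activator fructose 2,6-bisphosphate, was at 12.8 against 19.4 CPM (-0.60). Its relative Pfkfb4 did not enter, with 4.85 against 4.93 CPM.

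The enzymes of the lower pathway, from aldolase to pyruvate kinase, were all lower after neurectomy, by less than 2-fold. The log2 ratios were -0.11 for Aldoa (178 against 193 CPM), -0.29 for Tpi1 (106 against 130 CPM) and -0.08 for Gapdh (391 against 414 CPM). Pgk1 and Pkm make the ATP of the pathway. Pgk1 was at 110 against 127 CPM (-0.21) and Pkm at 313 against 348 CPM (-0.15). Pgam1, between them, was at 90.04 against 122 CPM (-0.44), and Eno1, the enolase, at 58.3 against 72.6 CPM (-0.32). Several of these genes, such as Gapdh and Eno1, have processed copies elsewhere in the mouse genome, and how reads shared with copies were counted is not given in the sources used here. Aldoc was close to absent, with 1 UMI after neurectomy and 2 after sham.

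At the end of the pathway, the transcripts of the lactate-making enzyme and of the lactate exporter differed by unequal amounts. Ldha, which turns pyruvate into lactate, was at 205 against 269 CPM (-0.39). Slc16a3 (MCT4), which carries lactate out of the cell, was at 3.61 CPM (2.80 to 4.58) after neurectomy, against 25.6 CPM (24.2 to 27.1) after sham, and its log2 ratio of -2.83 (-3.21 to -2.47) was the lowest of the 30 members. Pdk1, the kinase that holds pyruvate back from the mitochondrion, was at 13.6 against 18.4 CPM (-0.44).

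Among the other hypoxia targets, Ankrd37, a small ankyrin repeat protein, was at 2.16 CPM (1.54 to 2.93) after neurectomy and 10.3 CPM (9.40 to 11.3) after sham (-2.26, -2.76 to -1.79). The mitophagy receptors parted: Bnip3 was at 22.8 against 60.7 CPM (-1.41), and its relative Bnip3l at 92.6 against 100.2 CPM (-0.11). Higd1a, a mitochondrial protein that binds the respiratory chain, was at 73.8 against 151 CPM (-1.03). Bnip3 and Higd1a thus stood apart from Bnip3l, a receptor of the same kind as Bnip3.

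The transcripts of 2 collagen-modifying enzymes were lower by less. P4ha1, a catalytic subunit of collagen prolyl hydroxylase, was at 426 CPM after neurectomy and 596 CPM after sham (-0.48), and P4ha2 at 12.7 against 15.6 CPM (-0.30). The mitochondrial proteins Fam162a (87.0 against 119 CPM, -0.46) and Ak4 (13.7 against 18.6 CPM, -0.44), a nucleotide kinase, were lower by similar amounts. Egln1, the main prolyl hydroxylase that marks HIF for degradation, was at 85.0 against 102 CPM (-0.27), and the histone demethylase Kdm3a at 60.8 against 68.4 CPM (-0.17). Ndrg1, a stress-responsive cytoplasmic protein, was the exception, at 161 against 145 CPM (0.15). Mxi1, a repressor of MYC targets, was at 81.7 against 87.2 CPM (-0.09), and for the peptide hormone Adm, at 12.5 against 13.1 CPM, the interval held 0 (-0.29 to 0.16). Egln3 (1.24 against 4.88 CPM), Car9 (0.59 against 2.22 CPM), a carbonic anhydrase, and Ddit4 (6.74 against 9.92 CPM), an inhibitor of the growth kinase mTOR, stayed under the level minimum.

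Genes of the same pathways outside the members had medians closer to 0, though many of their intervals also lay below 0. Of 7 genes of the HIF system, 6 entered and 0 were 2-fold apart, where 0.472% of all genes were 2-fold lower and 0.794% higher. Their median log2 ratio was -0.02, with 0 intervals below 0 and 1 above. Hif1a itself was at 157 CPM in both libraries (log2 ratio 0.01, -0.06 to 0.07). Among 18 of 23 other hypoxia genes that entered, the interval lay below 0 for 10 and above 0 for 4, beside 18.5% and 31.3% of all genes. Their median log2 ratio was -0.18 and 2 were 2-fold apart in opposite directions. Vegfa, the main angiogenic growth factor, was at 19.1 against 40.5 CPM (-1.09), and Angptl4, an inhibitor of lipoprotein lipase, at 35.6 against 6.56 CPM (2.44). Angptl4 was also higher against the Xist and the Y-linked sham barcodes described later (3.37 and 0.96), and Vegfa was lower against both (-1.15 and -0.45). Of 27 other carbon metabolism genes, 12 entered, 0 were 2-fold apart and the median was -0.10. The interval lay below 0 for 6 of these 12 and above 0 for 3.

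HIF binds DNA at the core motifs ACGTG and GCGTG of the hypoxia response element. Promoter sequence (RefSeq, GRCm38.p6) was matched by symbol for 33 of the 35 members, all but Bnip3l and Ndrg1, and both motifs were searched on both strands in the 250 bases before the first listed start of each gene. One or more matches were found for 27 of 33 members (81.8%), that is 14 of 19 glycolytic genes (73.7%) and 13 of 14 other targets (92.9%), and for 38.6% of all 32851 promoters in the table. That last share counts every listed start of a gene, and was neither limited to expressed genes nor matched for base content. It is therefore not a like-for-like background. The 6 members at least 2-fold lower in tenocyte-like barcodes all had a match, and their windows are shown with the matches in capitals, 5′ to 3′ on the strand of the gene. A match on the opposite strand reads CACGT or CACGC, and overlapping matches, such as the palindrome in Bnip3 that counts for either strand, share their bases. A match is a description of these letters and not a bound site.
Slc16a3: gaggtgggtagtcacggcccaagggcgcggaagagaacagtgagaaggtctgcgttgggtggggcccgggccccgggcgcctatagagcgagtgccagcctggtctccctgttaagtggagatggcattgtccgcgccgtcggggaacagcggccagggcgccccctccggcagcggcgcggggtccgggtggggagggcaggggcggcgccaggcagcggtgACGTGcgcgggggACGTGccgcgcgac
Ankrd37: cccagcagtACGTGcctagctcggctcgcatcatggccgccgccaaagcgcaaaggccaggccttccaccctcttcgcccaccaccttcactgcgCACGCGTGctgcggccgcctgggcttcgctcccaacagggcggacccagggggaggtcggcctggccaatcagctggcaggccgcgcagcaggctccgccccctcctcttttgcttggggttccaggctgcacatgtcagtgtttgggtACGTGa
Bnip3: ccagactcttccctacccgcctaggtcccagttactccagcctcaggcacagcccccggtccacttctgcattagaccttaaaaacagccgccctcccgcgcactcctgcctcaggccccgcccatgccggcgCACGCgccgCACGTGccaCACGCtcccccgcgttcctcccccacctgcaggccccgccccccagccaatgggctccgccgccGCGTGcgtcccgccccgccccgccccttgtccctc
Slc2a1: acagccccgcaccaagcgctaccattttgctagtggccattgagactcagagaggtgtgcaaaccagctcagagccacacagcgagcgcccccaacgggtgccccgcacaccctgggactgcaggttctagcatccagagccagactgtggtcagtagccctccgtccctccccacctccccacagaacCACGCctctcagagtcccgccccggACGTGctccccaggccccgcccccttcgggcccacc
Pfkl: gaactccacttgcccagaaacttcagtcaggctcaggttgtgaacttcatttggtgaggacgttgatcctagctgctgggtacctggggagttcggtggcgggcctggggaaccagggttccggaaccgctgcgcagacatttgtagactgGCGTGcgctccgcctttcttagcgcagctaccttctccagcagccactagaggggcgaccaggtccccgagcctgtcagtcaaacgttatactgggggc
Higd1a: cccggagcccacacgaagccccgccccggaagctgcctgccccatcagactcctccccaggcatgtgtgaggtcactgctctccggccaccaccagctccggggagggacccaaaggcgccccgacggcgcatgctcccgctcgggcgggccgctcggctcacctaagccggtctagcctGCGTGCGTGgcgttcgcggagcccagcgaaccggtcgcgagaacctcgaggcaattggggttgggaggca
In GRCm38.p6 these windows lie at chr11:120948817-120949066 (plus strand) for Slc16a3, chr8:45999851-46000100 (minus) for Ankrd37, chr7:138909507-138909756 (minus) for Bnip3, chr4:119108495-119108744 (plus) for Slc2a1, chr10:78009808-78010057 (minus) for Pfkl and chr9:121857797-121858046 (minus) for Higd1a. Slc16a3 carries 2 ACGTG matches, starting 27 and 14 bases before its start, and Slc2a1 has 1 at 36 bases and a CACGC at 61. Pfkl has a single GCGTG, 99 bases before its start, the fewest of the 6, and Bnip3 has 5, the most. Matches were not limited to these 6. Among members less than 2-fold apart, Fam162a has 6 matches, Ldha has 5, Pfkp has 3 and Kdm3a has 1. Gapdh, Adm, Hk2 and Pgk1 have 2 matches each. Tpi1, Aldoa, Pkm, Hk1, Gpi1 and Mxi1 have none in this window, which says nothing of sites elsewhere.

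The difference in tenocyte-like barcodes depended on which sham barcodes were set beside the neurectomy library. Sham barcodes with Xist only had the high levels, and those with Y-linked transcripts only, from the same library, stood near the neurectomy level. Slc16a3 was at 3.61 CPM after neurectomy, 30.4 CPM (28.5 to 32.4) in sham barcodes with Xist only and 4.76 CPM (3.21 to 6.80) in sham barcodes with Y-linked transcripts only. Ankrd37 was at 2.16, 12.1 and 2.70 CPM in the same order. Pfkl was at 8.14, 20.0 and 8.57 CPM, and Higd1a at 73.8, 168 and 73.3 CPM. In all 4 genes the neurectomy interval overlapped that of the Y-linked barcodes and lay far from that of the Xist barcodes. Bnip3, at 22.8, 68.7 and 33.0 CPM, and Slc2a1, at 14.5, 42.3 and 24.0 CPM, lay between: the neurectomy level was the lowest of the 3, and its ratio to either sham set had an interval below 0.

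Against sham barcodes with Xist only, the same 6 members were at least 2-fold lower after neurectomy (background 0.553% of 8680 genes), with medians of -0.36 over the glycolytic genes and -0.35 over the other targets. Against sham barcodes with Y-linked transcripts only, the glycolytic median was 0.17, with 0 of 15 members 2-fold apart (background 2.83%; Slc16a3 and Pfkl, like Ankrd37 among the other targets, were under 10 CPM on both sides and did not enter) and 9 intervals above 0 (background 20.7%), among them Hk2 (0.62), Gapdh (0.52) and Eno1 (0.40). The other targets had a median of -0.12 there, and 1 of 13, Ddit4, was 2-fold lower (-1.16; background 1.17% of 8824 genes). P4ha1 was lower against either set (-0.61 and -0.27), and P4ha2 was lower against the Xist set (-0.35) and higher against the Y-linked set (0.96).

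Within the sham library alone, 6 members were at least 2-fold higher in Xist than in Y-linked tenocyte-like barcodes, against a background of 1.24% of 8717 genes: Slc16a3 (log2 ratio 2.67), Ankrd37 (2.17), P4ha2 (1.31), Pfkl (1.22), Higd1a (1.20) and Bnip3 (1.06). The medians were 0.52 over 17 glycolytic genes and 0.26 over 14 other targets, beside -0.06 over all genes. Adm (11.0 against 21.6 CPM, -0.97) and Ddit4 (7.74 against 15.1 CPM, -0.96) went the other way, as did Angptl4 (3.44 against 18.3 CPM, -2.41). The Y-linked barcodes were deeper, with a median of 6455 against 1848 UMIs, and the pattern was similar at 5000 UMIs or more (1260 Xist and 329 Y-linked barcodes): the glycolytic median was 0.55, the other targets' 0.27, and Slc16a3 stood at 30.9 against 3.77 CPM. Markers of other cells also differed between the Xist and Y-linked barcodes, with chondrocyte markers at 204 against 78.9 CPM, Col1a1 at 56512 against 36410 CPM and dissociation stress genes at 4439 against 5963 CPM, and their part in the result was not tested. Sex, mouse and anything else in which the mice of the sham pool differed cannot be told apart, since no barcode is tied to a mouse.

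**Figure D2:**
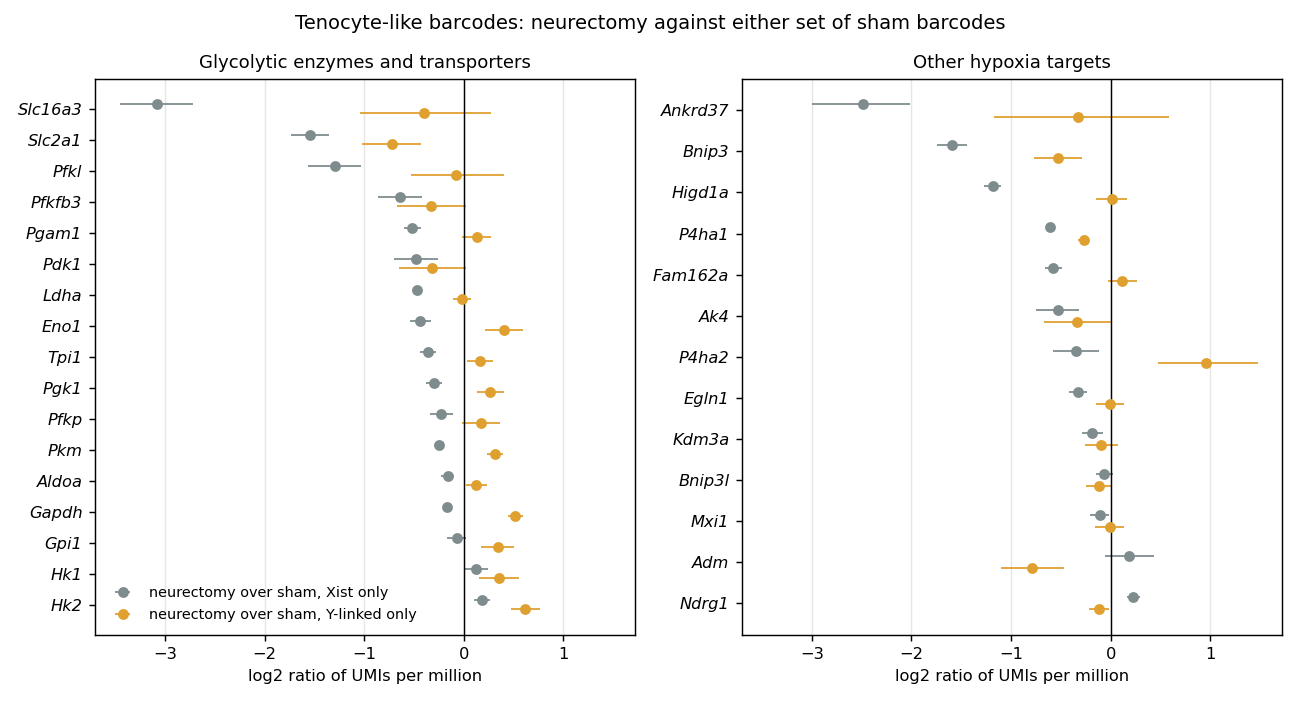
Log2 ratio of each member in tenocyte-like barcodes, neurectomy over sham barcodes with Xist only (grey, upper point) and over sham barcodes with Y-linked transcripts only (orange, lower point), with exact 95% intervals for counting error. Slc16a3 is at -3.07 against the first set and -0.40 against the second, Gapdh at -0.17 and 0.52.

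Members were also read per barcode, after every barcode with at least 3000 UMIs had been thinned to that number. Neurectomy barcodes (1023) carried a mean of 5.01 UMIs of the glycolytic genes and 3.45 of the other targets. The 1490 sham barcodes with Xist only carried 5.98 and 4.501, and the 357 with Y-linked transcripts only 4.18 and 3.92. The spread was widest in the Xist barcodes, where the variance was 2.79 times the mean for glycolytic genes, beside 2.01 in neurectomy and 1.35 in Y-linked barcodes. Across barcodes the 2 sums had a Spearman correlation of 0.27 in the sham Xist barcodes, -0.04 in the neurectomy barcodes and 0.04 in the Y-linked barcodes, given as a description of barcodes that share a library and a depth. At 1000 UMIs, which keeps more of the class, the correlation was 0.10 over all 6632 sham barcodes and -0.02 over 2699 neurectomy barcodes.

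In the sham Xist barcodes, UMIs of the members occurred together. How many barcodes held a UMI of a gene follows from its level and the depth, and is no share of cells that express it. Of the 1490, 95 held a Slc16a3 UMI, and these carried 9.71 UMIs of the other glycolytic genes and 7.09 of the hypoxia targets, against 5.65 and 4.32 in the 1395 without it, a ratio of 1.72 and 1.64. In the neurectomy library 14 of 1023 barcodes held a Slc16a3 UMI, with 5.00 and 3.21 UMIs, against 5.00 and 3.46 without it. Bnip3 gave the same picture with more barcodes: 208 sham Xist barcodes with a Bnip3 UMI carried 1.55 times the glycolytic UMIs and 1.48 times the other hypoxia UMIs of the 1282 without, against ratios of 0.89 and 1.02 for 62 neurectomy barcodes with Bnip3 and 0.91 and 1.02 for 36 Y-linked barcodes. For Bnip3l the ratios were 1.18 and 1.15 in the sham Xist barcodes and 0.96 and 1.05 in the neurectomy barcodes. Slc2a1 gave 1.46 and 1.34, against 1.18 and 1.19 for 35 neurectomy barcodes. Ankrd37 gave 1.68 and 1.45, against 1.29 and 1.08 for 7 neurectomy barcodes. P4ha1 gave 1.10 and 1.24, against 0.86 and 0.88 in neurectomy barcodes. For 6 Y-linked barcodes with Slc16a3 the ratios were 1.29 and 1.28. Mineralising cell markers were at 8155 CPM in these 6 against 748 CPM in Y-linked barcodes without Slc16a3. Chondrocyte markers were at 1233 against 61.6 CPM and tenocyte markers at 13490 against 20439 CPM, and their part was not tested. The 95 barcodes with Slc16a3 had macrophage markers at 13.4 against 15.5 CPM and tenocyte markers at 16153 against 19698 CPM. Neutrophil markers were at 0 against 0.54 CPM, a level too low for the 0 to tell the sets apart. Chondrocyte markers were at 416 CPM in barcodes with Slc16a3 against 191 CPM without it. Mineralising cell markers were at 223 against 631 CPM and proliferation markers at 195 against 37.3 CPM, and the part of these markers in the result was not tested. Before thinning, sham Xist barcodes with Slc16a3 had a median of 21455 UMIs against 16146 without it, and neurectomy barcodes 18717 against 11426. For Bnip3 the medians were 20349 against 15744 in sham Xist and 10672.5 against 11550 in neurectomy barcodes. The part of depth was not tested, and no gene outside the members was read in this way.

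**Figure D3:**
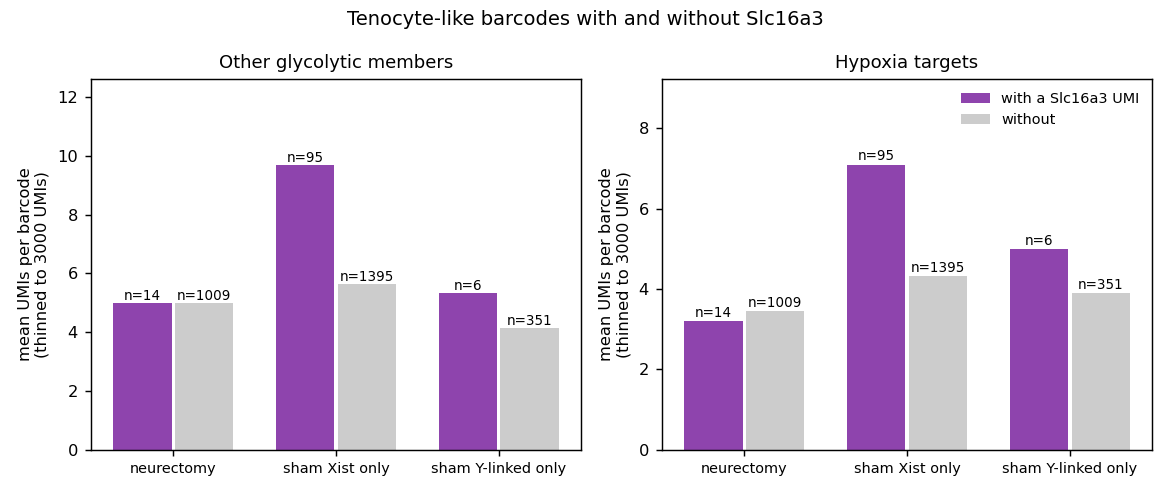
Mean UMIs per barcode of the other glycolytic members (left) and of the hypoxia targets (right) in tenocyte-like barcodes thinned to 3000 UMIs, with (purple) and without (grey) a UMI of Slc16a3; numbers over the bars are barcodes, which are not replicates, so no error is drawn. In sham barcodes with Xist only the bars stand at 9.71 against 5.65 and 7.09 against 4.32, and in neurectomy barcodes at 5.00 against 5.00 and 3.21 against 3.46.

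In the other classes of tendon, members at least 2-fold apart were few. In macrophage-like barcodes (1452 neurectomy and 1263 sham), of 27 members that entered, 18 had an interval below 0 and 1 above, where 19.3% of all genes lay below and 18.8% above. The medians were -0.19 over glycolytic genes and -0.23 over other targets, beside -0.02 over all genes. Slc16a3 was the 1 member 2-fold lower, at 15.5 CPM (75 UMIs) after neurectomy against 31.7 CPM (268 UMIs) after sham (log2 ratio -1.04, -1.43 to -0.66), where 0.797% of genes were 2-fold lower. Against the sham macrophage-like barcodes with Xist only it was at -1.15, and against those with Y-linked transcripts only, which held 10 UMIs of it, at 0.01 (-0.95 to 1.13). Bnip3 (-0.86), Slc2a1 (-0.71) and Eno1 (-0.66) were next, and Slc2a1 and Eno1 had intervals below 0 against either sham set. Tenocyte markers, at 1170 against 621 CPM, and muscle markers, at 136 against 19.2 CPM, also differed in this class, and their part in the result was not tested.

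Blood endothelial-like barcodes (1353 and 1066) had 2 members that were 2-fold lower after neurectomy, beside 0.504% of all genes. Pdk1 was at 12.7 CPM (40 UMIs) against 30.01 CPM (89 UMIs), or -1.24 on the log2 scale (-1.81 to -0.68), and Ankrd37 at 10.5 against 22.6 CPM (-1.10). Both were lower against each sham set: Pdk1 at -1.08 against Xist and -1.83 against Y-linked barcodes, Ankrd37 at -1.45 and -1.35. Ddit4 was at 52.3 against 93.1 CPM (-0.83). Hk2 was higher, at 48.7 against 31.0 CPM (0.65). The median was 0.08 over 16 glycolytic genes and -0.23 over 14 other targets, beside 0.03 over all genes, and the median of all 30 members was 0.00.

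Fibroblasts split by type. In stromal fibroblast-like barcodes (738 and 424), Adm, which encodes the vasodilator adrenomedullin, was 2-fold higher after neurectomy, at 41.9 against 19.4 CPM (1.11 on the log2 scale, 0.75 to 1.48), as were 1.67% of genes, and it was higher against the Xist (1.08) and the Y-linked set (1.56). Slc2a1 was at 15.4 against 27.7 CPM there (-0.85). In Pi16 fibroblast-like barcodes (934 and 987), 0 members were 2-fold apart (background 1.28% in either direction), with Egln3 (18.9 against 34.9 CPM, -0.89), Adm (11.5 against 19.4 CPM, -0.75) and Bnip3 (24.8 against 38.0 CPM, -0.62) farthest. The median in this class was 0.09 over the glycolytic genes and -0.16 over the other targets, beside 0.02 over all genes. Within the sham library, the Xist (627) and Y-linked (105) barcodes of the Pi16 class were set side by side: of 31 that entered, 20 intervals held 0, 9 lay below 0 (background 15.8%) and 2 above (background 13.2%). The median there was 0.06 over the glycolytic genes and -0.13 over the other targets, beside -0.01 over all genes. Egln3, at 29.97 CPM in Xist against 73.1 CPM in Y-linked barcodes, Bnip3, at 33.1 against 62.7 CPM, and Slc16a3, at 5.33 against 13.8 CPM, were among the 9, and were picked after their values were seen. Both fibroblast classes were deeper in the sham library, with medians of 2096.5 (stromal) and 2932.5 (Pi16) UMIs in the neurectomy library against 9917.5 and 9890 in the sham library.

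Lymphatic endothelial-like barcodes (560 and 562) had 0 members 2-fold apart (background 2.41%), with Adm (111 against 56.4 CPM, 0.97) and Hk2 (82.9 against 44.4 CPM, 0.90) highest. Mural-like barcodes, pericytes and smooth muscle (115 and 141), had P4ha1 at 177 against 63.3 CPM (1.48, 0.93 to 2.04) and Eno1 at 68.5 against 32.9 CPM (1.06, 0.22 to 1.90) 2-fold higher, in a class where 5.81% of all genes were, and Pgk1 stood just under at 124 against 62.1 CPM (1.00). Tenocyte markers, at 2406 against 872 CPM, and red cell markers, at 783 against 101 CPM, also differed there, and their part in the result was not tested. Against mural-like sham barcodes with Xist only, P4ha1 was at 0.66 (-0.03 to 1.40).

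Read across the 7 classes, Hk2 had an interval above 0 in 5 of 6 classes that it entered, from -0.17 in macrophage-like to 0.90 in lymphatic endothelial-like barcodes. Bnip3 had an interval below 0 in 4 of 5, from -1.41 in tenocyte-like to 0.14 in stromal fibroblast-like barcodes. Kdm3a lay below 0 in 4 of 7. Slc2a1 was at or below -0.18 in all 5 classes it entered, with 3 intervals below 0. These members were picked by their values. How many of all genes had intervals on 1 side in as many classes was not counted, so the recurrence is a description and not a property of the members.

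**Figure D4:**
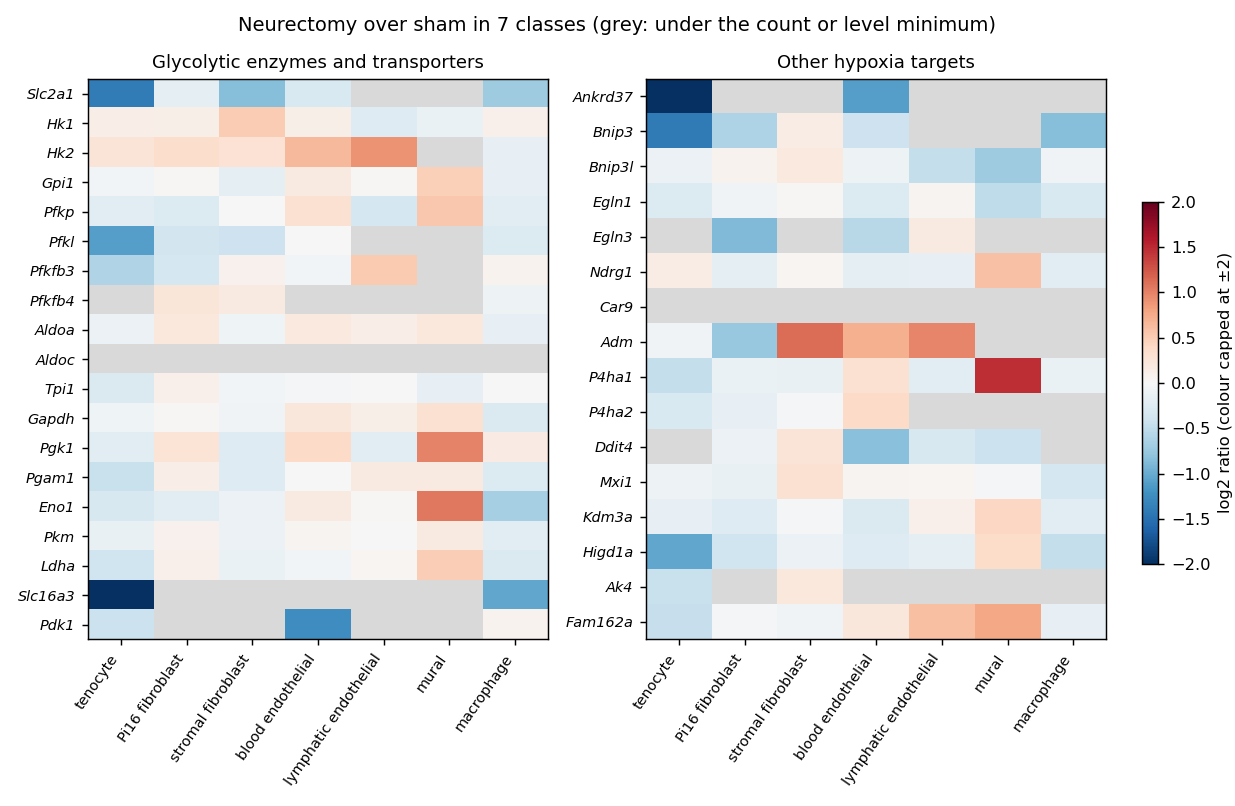
Log2 ratio of neurectomy over sham for each member (rows) in the 7 tendon classes that held 100 or more barcodes per library (columns); blue is lower and red higher after neurectomy, and grey marks a member under the count or level minimum. The tenocyte column holds the lowest values, with Slc16a3 at -2.83 and Ankrd37 at -2.26, and the mural column the highest, with P4ha1 at 1.48.

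The levels of each gene were also ordered over the classes of 1 library at a time, among classes of 100 or more barcodes. Levels are not compared between genes. How many of all genes were highest in each class was not counted. The counts of members led by a class, here and below, are therefore a description and not a property of the members. In the sham library the glycolytic genes were most often highest in macrophage-like barcodes (9 of 19, 6 of them clear of the next class), among them Slc16a3 (31.7 CPM, next tenocyte-like 25.6), Gpi1 (157, next Pi16 fibroblast-like 103), Pfkfb4 (31.3, lowest in tenocyte-like at 4.93) and Eno1 (92.3, lowest in mural-like at 32.9). Gapdh, Aldoc, Pgam1, Pfkp and Pfkfb3 completed that list, and for Pgam1, Pfkp and Pfkfb3 the intervals of the 2 highest classes overlapped. Tenocyte-like barcodes led for Ldha (269 CPM, lowest lymphatic endothelial-like 156), Pgk1 (127, lowest mural-like 62.1) and Pkm (348, lowest stromal fibroblast-like 191), and for 6 of 16 other targets: P4ha1 (596, lowest mural-like 63.3), Bnip3 (60.7, lowest stromal 20.6), Higd1a (151, lowest mural-like 53.2), Fam162a, Mxi1 and Ak4. For Pgk1, Fam162a, Mxi1 and Ak4 the next class overlapped. Among barcodes with 5000 or more UMIs, where 5 classes kept 100 or more barcodes, tenocyte-like barcodes led for 5 glycolytic genes instead of 3.

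Endothelial, fibroblast and mural classes led for the remaining members, and for Slc2a1, Bnip3l, Hk1, Egln3, Ndrg1, Kdm3a, Pfkl, Tpi1, Ankrd37 and Car9 the interval overlapped that of the next class. Slc2a1 (43.8 CPM, lowest Pi16 fibroblast-like 25.7) and Pdk1 (30.01, lowest Pi16 7.57) were highest in blood endothelial-like barcodes, as were Bnip3l (145, lowest stromal 91.6), Egln1 (123, lowest macrophage-like 51.2) and Ddit4 (93.1, lowest macrophage-like 6.87). Hk1 (94.9, lowest stromal 36.8), Adm (56.4, lowest macrophage-like 2.37), Egln3 (42.0, at 0 UMIs in mural-like) and Ndrg1 (364, lowest mural-like 108) were highest in lymphatic endothelial-like barcodes. Hk2 was highest in stromal fibroblast-like barcodes (212, lowest mural-like 19.0), P4ha2 (56.8, lowest macrophage-like 6.396) and Kdm3a (81.8, lowest mural-like 45.6) in Pi16 fibroblast-like barcodes, and Pfkl (43.1, lowest stromal 10.2), Aldoa (231, lowest blood endothelial-like 137), Tpi1 (138, lowest blood endothelial-like 89.0) and Ankrd37 (29.1, lowest stromal 4.23) in mural-like barcodes. Car9 was low in every sham class, from 0 UMIs in lymphatic endothelial-like to 3.801 CPM (3 UMIs) in mural-like barcodes.

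The neurectomy library had enough skeletal muscle-like barcodes (318, against 11 in the sham library) for a class of their own, and these led for 9 glycolytic genes, 5 of them clear of the next class. Aldoa was at 1704 CPM (lowest stromal 138), Gapdh at 1741 (lowest Schwann-like 276), Ldha at 459 (lowest Schwann-like 144), Tpi1 at 383 (lowest blood endothelial-like 87.0) and Pgk1 at 221 (lowest Schwann-like 48.7). Muscle-like barcodes also led for Bnip3 (35.0 CPM, 21 UMIs), but the intervals of the 2 highest classes overlapped. Schwann-like barcodes, the glia of peripheral nerve, led for Ndrg1 (765 CPM, next lymphatic endothelial-like 325), a gene whose loss causes a demyelinating neuropathy in people. P4ha1 stayed highest in tenocyte-like barcodes (426, lowest Schwann-like 123) and Hk2 in stromal fibroblast-like barcodes (258, lowest Schwann-like 43.3). After neurectomy Slc16a3 was still highest in macrophage-like barcodes, at 15.5 CPM, overlapping mural-like barcodes at 13.2 CPM (5 UMIs), while tenocyte-like barcodes, second in the sham library, were at 3.61 CPM with Schwann-like barcodes (1 UMI) alone below and stromal fibroblast-like barcodes (3.70 CPM) beside them.

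In the DRG library the glycolytic genes were highest in neutrophil-like (8 of 19), neuron-like (4), blood endothelial-like (3), mural-like (2), fibroblast-like (1) and satellite glia-like (1) barcodes. Neuron-like barcodes (2418, median 50462.5 UMIs) led for Aldoa (707 CPM, lowest blood endothelial-like 173), Pgam1 (656, lowest blood endothelial-like 129), Pfkp (128, lowest satellite glia-like 11.6) and Pdk1 (16.6, lowest macrophage-like 1.83), and for the mitochondrial proteins Bnip3 (128, lowest mural-like 8.997) and Higd1a (464, lowest neutrophil-like 62.9). Pdk1 in blood endothelial-like barcodes overlapped at 15.5 CPM. At 5000 or more UMIs neurons led for 9 glycolytic genes instead of 4, over the 5 classes that kept 100 or more barcodes, which no longer included neutrophil-like (19) and mural-like (24) barcodes. In all barcodes, neurons were lowest of 9 classes for Slc2a1, at 10.4 CPM against 199 CPM in blood endothelial-like barcodes, a 19.1-fold difference. Neurons were also lowest for Pfkfb4, Ndrg1, Mxi1 and Kdm3a. Satellite glia-like barcodes (3277), which wrap the cell bodies of neurons, led for Aldoc, the brain-type aldolase, at 629 CPM, against 123 in the next class, left unnamed below, and 2.31 in blood endothelial-like barcodes, and for Mxi1 (236, lowest neuron-like 19.2). Aldoc thus spanned 272-fold over the DRG classes, and was close to 0 in tendon, where its highest level was 4.26 CPM in sham macrophage-like barcodes.

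Myelinating Schwann-like barcodes (6730) led for Ndrg1, at 2140 CPM, against 24.4 CPM in neurons, and for Egln1 (119, lowest macrophage-like 14.6) and Bnip3l (166, lowest macrophage-like 32.9, with blood endothelial-like barcodes overlapping at 160). Blood endothelial-like barcodes (574) led for Slc2a1, the carrier of the blood-nerve barrier, Hk1 (204, lowest macrophage-like 26.2), Pfkfb3 (202, lowest myelinating Schwann-like 4.82), Egln3 (24.8, lowest myelinating Schwann-like 0.37) and Kdm3a (110, lowest neuron-like 11.2). Neutrophil-like barcodes (131) led for 8 glycolytic genes, with Slc16a3 at 180 CPM (next mural-like 33.6, and 1 UMI in the class left unnamed below), Gpi1 at 423 (lowest myelinating Schwann-like 58.9), Pkm at 571 (lowest myelinating Schwann-like 147), Pgk1 at 230, Eno1 at 143 and Pfkfb4 at 52.1, while Ldha and Gapdh overlapped the next class. Proliferation markers were at 690 CPM in neutrophil-like barcodes, against 37.8 CPM in the next highest DRG class. Camp, Ngp, Ltf and Prtn3 were among their 10 top genes, beside 3 of the markers. The maturity and cycling of these cells were not examined, and their part in the levels was not tested. Fibroblast-like barcodes (1930) led for Hk2 (136, against 1 UMI in blood endothelial-like), Adm (53.4, 0 UMIs in neutrophil-like), P4ha1 (174, lowest neutrophil-like 15.2), P4ha2 (42.4, 2 UMIs in macrophage-like) and Ak4. Mural-like barcodes (578) led for Ddit4 (148, 0 UMIs in neutrophil-like), Tpi1 (287, lowest macrophage-like 67.0), Pfkl (47.4), Fam162a (157), Ankrd37 (18.0) and Car9 (7 UMIs). For Ak4, Pfkl, Fam162a, Ankrd37 and Car9 the next class overlapped. Hk2 and P4ha2 thus led in a fibroblast class in both tendon libraries and in ganglia, though in the neurectomy library 2 fibroblast classes overlapped for P4ha2. Slc2a1 had its highest level in blood endothelium in all 3 libraries, clear of the next class in ganglia alone: in the neurectomy library it stood at 35.4 against 34.3 CPM in mural-like barcodes, and in the sham library at 43.8 against 40.6 CPM in macrophage-like barcodes. The class that met the gate for non-myelinating Schwann cells (799) had 3 of its markers but also Tac1, Adcyap1, Syt4, Robo2 and Calca, genes of neurons, among its 10 top genes, so it is left unnamed; it led for no member.

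**Figure D5:**
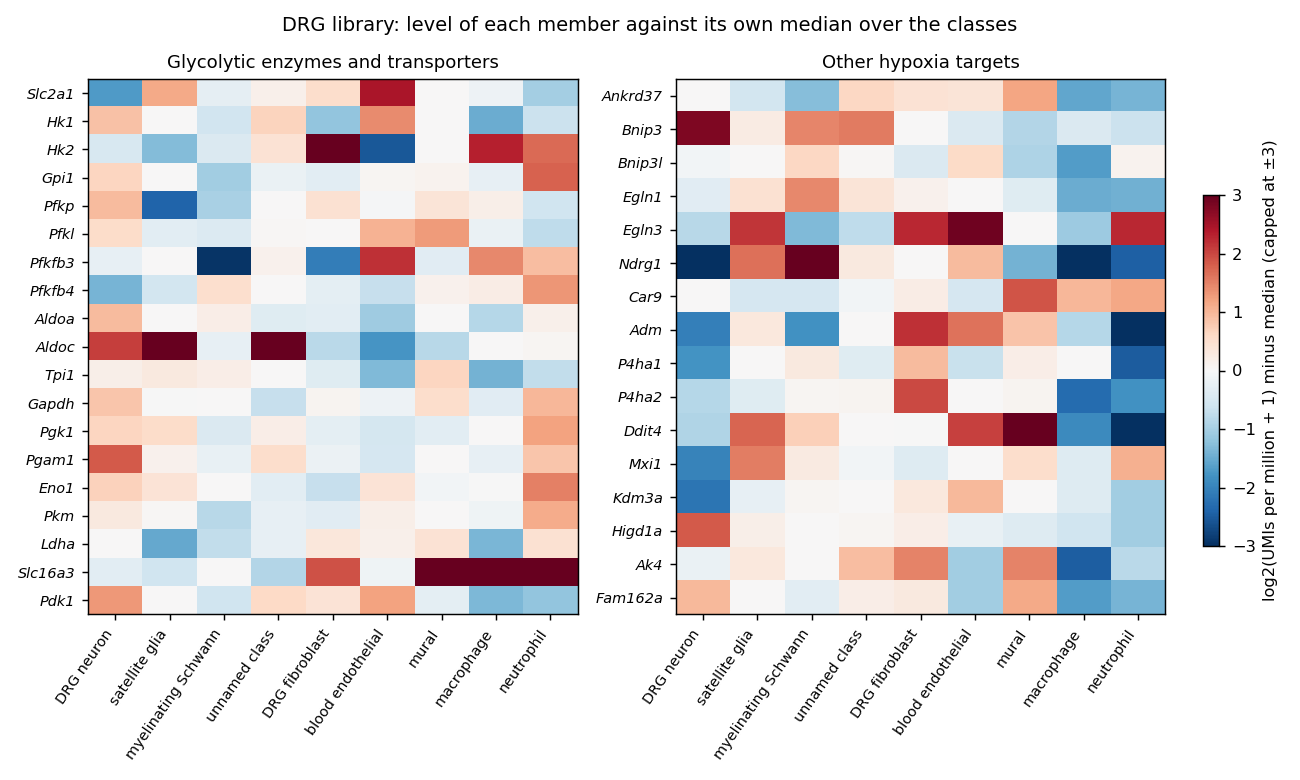
Level of each member in the 9 DRG classes of 100 or more barcodes, as log2(CPM + 1) minus the member's own median over the classes, 1 of them left unnamed; red is above and blue below that median, and colours stop at ±3. Aldoc stands out in satellite glia-like (629 CPM), Ndrg1 in myelinating Schwann-like (2140 CPM), Slc2a1 in blood endothelial-like (199 CPM) and Slc16a3 in neutrophil-like barcodes (180 CPM).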

How the data were processed

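The authors deposited raw UMI counts for each gene in each barcode, which per the file headers came from Cell Ranger 8.0.1, and did not normalize them. The submitters' processing notes name the builds mm10 and GRCm39 without roles, and the annotation release is not given in the sources used here. Per the labels' protocols, enzymes freed the cells, red cells of tendon were lysed and a density gradient enriched those of ganglia, all of which can change which cells were captured. No member's values were lost, but 2 tendon features share the symbol Aldoa and the one with more UMIs was used.

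A barcode joined a class when it held at least 3 of that class's markers, each at or above the marker's share of UMIs over all barcodes. Barcodes that met several gates (12.1% of neurectomy, 12.9% of sham and 15.7% of DRG barcodes) were left out, which stands in for a doublet caller. The gate was set after seeing the data, and the members and lists were chosen with earlier results of these data known. UMIs were summed per class and library. Levels have exact Poisson and ratios exact conditional 95% intervals, for counting error only. With 1 library per group no test was run, and a call is a ratio of 2-fold or more. A level of 0 was set against 3 counts, and no ratio was given where both libraries had 3 or fewer. Every member that entered is named for tenocyte-like barcodes, and every member 2-fold apart in the other classes. Library depth was 79750679 UMIs for neurectomy, 133570956 for sham and 239515477 for DRG. The ratio code was tested on simulated data. Python 3.11.15, numpy 2.4.6, scipy 1.17.1, pandas 2.3.3 and matplotlib 3.10.9 were used.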

Additional observations from a re-analysis of the deposited data

Results flagged for a closer look

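In 3 results the ratio of neurectomy to sham in 1 class lay on the other side of 0 from the ratio in other classes, with intervals that excluded 0 on both sides. Adm was at 1.11 on the log2 scale in stromal fibroblast-like barcodes and at -0.75 in Pi16 fibroblast-like barcodes. P4ha1 was at 1.48 in mural-like barcodes and at -0.48 in tenocyte-like, -0.13 in Pi16 fibroblast-like and -0.14 in macrophage-like barcodes. Eno1 was at 1.06 in mural-like barcodes, on 26 UMIs in each library, and at -0.32, -0.23 and -0.66 in those same 3 classes. With 1 library per group the difference between classes was not tested.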

How the results depend on the processing

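The median ratio of the glycolytic genes in tenocyte-like barcodes, -0.29, was -0.37 with 1 more marker in the gate, -0.45 with markers at 2 times the pooled level, -0.40 without barcodes shared by both libraries, -0.20 without barcodes holding muscle UMIs, -0.21 without a filter on low counts and 0.17 against sham barcodes with Y-linked transcripts only. In that last setting 0 glycolytic genes were 2-fold lower, 3 of the 6 members called (Slc16a3, Pfkl and Ankrd37) being under the level minimum on both sides, the other targets had a median of -0.12 with 1 gene 2-fold lower, and Higd1a (0.0084) and, in macrophage-like barcodes, Slc16a3 (0.0089) lay on the other side of 0. The cause was not tested. Without the filter 5 of the other targets were 2-fold lower, since genes with few UMIs then count. The 6 tenocyte members called 2-fold lower kept that call otherwise, except Pfkl with each barcode scaled to its own total, Higd1a without muscle UMIs, and Ankrd37 not measured with markers at 2 times the pooled level. Scaling each barcode put the Pi16 glycolytic median at -0.073. At 5000 or more UMIs, lymphatic medians were 1.61 for glycolytic genes and -1.16 for other targets on 14 neurectomy and 9 sham barcodes, tenocyte-like barcodes led for 5 glycolytic genes in the sham library instead of 3, and neurons led for 9 in the DRG library instead of 4. Thinned to 1000 UMIs, mean UMIs per barcode were 1.76 (neurectomy) and 2.02 (sham) for glycolytic genes and 1.09 and 1.36 for other targets, while sham barcodes had 2.08 and 1.40 with Xist only and 1.61 and 1.21 with Y-linked transcripts only. Thinned to 3000 UMIs they were, in each 1000, 1.67 and 1.89, and 1.15 and 1.47, and the 2 sham sets had 1.99 and 1.50 (Xist) and 1.39 and 1.31 (Y-linked). The marker level and the shared barcodes were alternatives chosen after seeing the data. Of the medians, means per barcode, tenocyte-like counts and counts by leading class, 249 moved by less than the bound set and 23 by more. Of the values of single genes and the counts in other classes, 2571 moved by less and 329 by more. A further 2 values called 2-fold apart lay on the other side of 0. Low depth limits members under about 50 UMIs, and leaving out a replicate was not possible with 1 library per group. No paired analysis was possible because each group has 1 library.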
